A study of Oryza sativa Indica Group with 9 samples.

Results

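The miR169 family and the transcripts cut at its sites were followed in leaves of rice seedlings under heat. The family was taken as every listed sequence named miR169 or MIR169, whatever its species prefix, letter or strand. This gave 18 distinct sequences of the 483 listed in the 6 small RNA libraries. In the degradome, a library of the 5′ ends of cut polyadenylated RNA, the family was listed at 24 loci in 144 rows, and 7 of these loci were annotated as nuclear factor Y genes.

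The plants were three-leaf seedlings of the Indica breeding line HT54 (Oryza sativa), noted for its heat tolerance, grown at a constant temperature and then kept at 45 °C. Leaves were taken before heat (no heat), 12 h and 24 h. Small RNA was read in 2 libraries per time point, numbered 1 and 3, and the degradome in 1 library per time point. The small RNA samples of a time point are described as independent, and the submitters left out 1 further library per time point as unfit for analysis. Leaves kept without heat for 12 or 24 h are not among the samples, so heat and elapsed time cannot be told apart. All plants were of this line, and no heat-sensitive rice is among them.

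miR169 is among the old families of plant microRNAs. Its guide strand leads the cutting of transcripts of nuclear factor Y subunit A, called NF-YA or HAP2. NF-YA is the subunit that recognises the CCAAT box in promoters, which it binds together with the subunits NF-YB and NF-YC. In rice and Arabidopsis the family is known for its response to drought, salt and nitrogen or phosphate supply. A plant microRNA is cut from a hairpin precursor as a short duplex, of which the guide strand is loaded into an Argonaute protein while the other strand (the passenger) is mostly degraded.

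The guides carry the finding on the nuclear factor Y sites, since no other member was listed there. They share the same seed, bases 2 to 8 counted from the 5′ end, shown in capitals as DNA letters in the deposited spelling. Of the 483 sequences 6 (1.24%) had this seed at these bases, 5 of them in the family.
osa-miR169b: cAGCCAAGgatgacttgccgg
osa-miR169h: tAGCCAAGgatgacttgcctg
osa-miR169r-5p_R+1: tAGCCAAGgatgatttgcctgt
osa-miR169n: tAGCCAAGaatgacttgccta
osa-miR169f.1_R-2: tAGCCAAGgatgacttgcc
osa-MIR1430-p5: tAGCCAAGaatggcttgcctatc

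The last of these belongs to another family by name and is shown because it has the same seed and a nuclear factor Y site. With osa-miR169h as the reference, osa-miR169b differs by T1C and T20G, osa-miR169n by G9A and G21A, and osa-miR169r-5p_R+1 by C14T and 1 extra base at its end. osa-miR169f.1_R-2 is osa-miR169h without its last 2 bases. osa-MIR1430-p5 differs from osa-miR169n by A13G (osa-miR169n base first) and is 2 bases longer. The marks R+1 and R-2 are the authors' and give bases added or missing at the right end.

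Of the other strands, those shown are the 3 members that passed the test in a comparison, osa-MIR169a-p5 as the partner of one of them, and ata-miR169d-3p_R-1_1ss9-T, the 3′ sequence with the most reads. Bases 2 to 8 are again in capitals.
osa-MIR169a-p5: aTCGGAGGccatggtgcagcc
osa-MIR169a-p3: cTACATCTtggcccctgctcc
osa-MIR169c-p3: gGCAAGTCtgtccttggctac
ata-miR169d-3p_R-1_1ss9-T: gGCAAGTTtgtccttggctac
osa-MIR169b-p3_1ss7TC: gGCAAGCTgtccttggctacg

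The letters put the members into 3 groups. The 5 guides hold AGCCAAG at bases 2 to 8. A further 7 sequences of the 3′ arm hold CTTGGCT, the reverse complement of the seed, and so lie opposite it in a hairpin. The remaining 6 fit neither description. Among these 6 are osa-MIR169a-p5 and osa-MIR169a-p3, which come from the 173-base hairpin of osa-MIR169a on chromosome 1 (8729104 to 8729276, plus strand). There osa-MIR169a-p5 starts at base 22, while the guide seed starts at base 39, so it shares only 5 bases with the annotated guide. By arm, 8 of the 18 sequences were of the 5′ side and 10 of the 3′ side.

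The precursors lie on 8 chromosomes. Their positions are those of the deposited tables, and the sources used here do not name the genome build behind them. 4 of them, osa-MIR169h, i, l and m, sit within 14480 bases on chromosome 8 (26803116 to 26817595), all on the plus strand. osa-MIR169j and k sit within 3428 bases on chromosome 9, and osa-MIR169n and o within 3901 bases on chromosome 11. The sequence of osa-miR169h is common to the precursors h to m, so its reads cannot be assigned to a locus. The same holds for osa-miR169b, which the precursors b and c share, and for osa-miR169n, shared by n and o. Entries named after another grass can be listed at a rice locus of the family. ata-miR169d-3p_R-1_1ss9-T was listed on chromosome 4 at 30712254 to 30712387, an interval that overlaps osa-MIR169c (30712338 to 30712449). Its exact sequence was not found in the hairpin given there, so its locus of origin is not settled. ata-miR169d-3p_R-1_1ss9-T differs from osa-MIR169c-p3 by C8T (osa-MIR169c-p3 base first). It also ends in the bases that begin bdi-MIR169f-p3, which was found at base 124 of a hairpin on chromosome 8 (7641303 to 7641478).

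The listed reads of a small RNA library ranged from 10314 (12 h, replicate 3) to 227965 (24 h, replicate 3), and the degradome libraries held 12554074, 11033581 and 12960708 raw reads at 0, 12 and 24 h. Levels are in CPM, which puts the reads of each library on the same scale after TMM correction of its total. The correction was made separately for single sequences, families, family arms and the sums by seed. The CPM of a sum is therefore not the total of its members' CPM, and the floors given next are those of single sequences. A count of 3 reads, the least taken as a level, equals 78.4 and 28.7 CPM before heat (replicates 1 and 3), 20.3 and 195 CPM after 12 h, and 36.2 and 16.1 CPM after 24 h. Replicate 3 of 12 h is therefore shallow, and 7 of the 18 sequences had no read in it after rounding. Sequences ending in CCA, as mature tRNAs do, made up 21.4 and 17.9% of listed reads before heat, 9.81 and 10.3% after 12 h, and 3.83 and 6.06% after 24 h. The share of miR396 went the other way, from 6.11 and 7.06% to 25.8 and 11.7% and then 48.3 and 39.7%. The panicle families miR2118 and miR2275, which leaf should lack, stayed between 0.097 and 0.498%.

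The family as a whole took a small part of the listed reads, and its sum passed the test in none of the 3 comparisons. Its reads numbered 288 and 1147 before heat (replicates 1 and 3), 1515 and 53 after 12 h, and 1175 and 1719 after 24 h. These are 0.857 and 1.12%, 1.03 and 0.514%, and 0.985 and 0.754% of the listed reads. For the shallowest library the exact binomial 95% interval of that share ran from 0.385 to 0.672%, which covers counting error only.

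In CPM the summed family stood at 8047 and 10754 before heat, 8396 and 4310 after 12 h, and 13347 and 9829 after 24 h. The means were 9400 ± 1914 (SD, n = 2), 6353 ± 2890 and 11588 ± 2487 CPM, so 24 h was highest and 12 h lowest, but 0 h overlapped with each of the other time points. The log2 changes were −0.56 ± 0.68 (SE) after 12 h against 0 h, with an adjusted p of 0.724 by the quasi-likelihood test of edgeR, 0.30 ± 0.67 after 24 h against 0 h (adjusted p = 0.869) and 0.86 ± 0.68 after 24 h against 12 h (adjusted p = 0.684). With 1 library left out these values ran from −1.16 (without 12 h replicate 1) to −0.05 (without 12 h replicate 3), from 0.07 (without 0 h replicate 1) to 0.64 (without 0 h replicate 3), and from 0.21 (without 12 h replicate 3) to 1.58 (without 12 h replicate 1), and none passed. In these comparisons 0.806% of all 124 families passed as higher and 2.42% as lower after 12 h against 0 h, 4.03% and 10.5% after 24 h against 0 h, and 1.61% and 0% after 24 h against 12 h. With plain library totals in place of TMM scaling the change after 24 h against 0 h was −0.18, under a scaling that moves the median of all sequences by −0.51. The shares of miR396 and of CCA-ending sequences above differ between the same libraries, and their part in this result was not tested.

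Split by arm, the 5′ sequences had summed log2 changes of −0.43 ± 0.70 after 12 h and −0.08 ± 0.70 after 24 h against 0 h, and the 3′ sequences of −0.55 ± 0.67 and 0.44 ± 0.67. None of these passed (adjusted p from 0.766 to 0.981, edgeR), where 2.66% of 188 family arms passed as lower and 0% as higher after 12 h, and 9.57% and 2.13% after 24 h.

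The make-up of the family is given by shares of its reads. The pair osa-MIR169a-p5 and osa-MIR169a-p3 made up 37.3 and 56.0% of the miR169 reads before heat, 17.8 and 17.0% after 12 h, and 10.04 and 15.5% after 24 h. Both 0 h libraries lay above all 4 heated libraries. The 5 guides with the seed held 20.2 and 14.9% before heat, 36.6 and 21.5% after 12 h, and 24.1 and 30.9% after 24 h, with both 0 h libraries below all others, though the 12 h value of 21.5% rests on 53 miR169 reads. The 7 strands with the seed complement held 18.7 and 12.2%, then 23.9 and 44.3%, then 49.2 and 29.5%, again lowest in both 0 h libraries. These shares are of the same total, so a fall of one raises the rest, and no test was run on them.

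**Figure D1:**
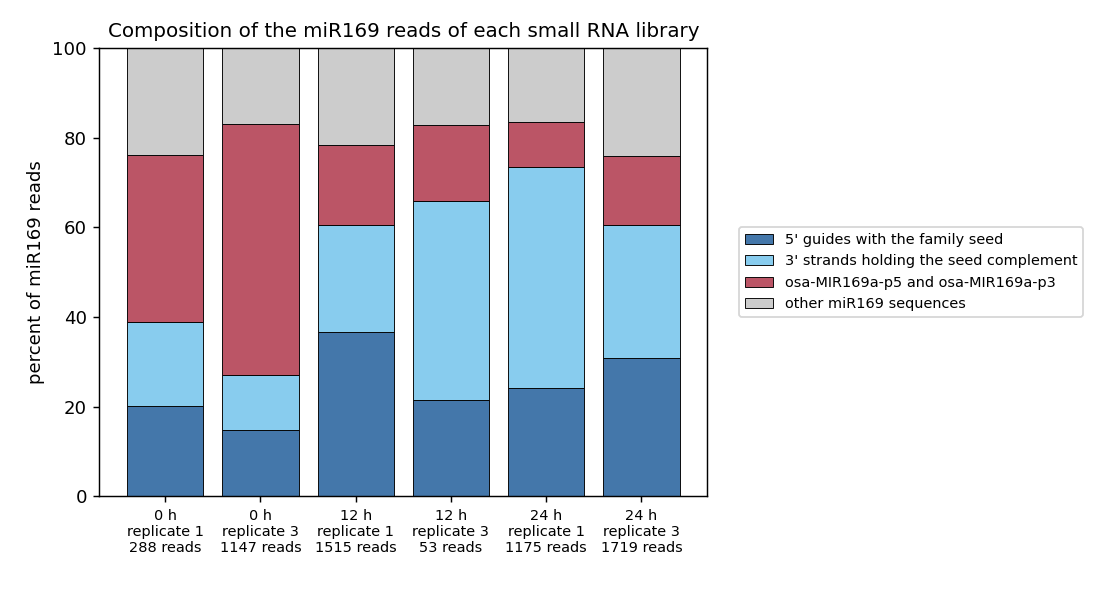
Percent of the miR169 reads of each small RNA library (bars, vertical axis) held by 4 classes of sequence, with the number of miR169 reads under each bar. The pair from osa-MIR169a fills 37.3 and 56.0% of the 0 h bars and between 10.04 and 17.8% of the bars at 12 and 24 h.

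osa-MIR169a-p3 was the member that fell after 12 h. It had 1359 and 3320 CPM before heat (replicates 1 and 3), 528 and 195 CPM after 12 h, and 507 and 660 CPM after 24 h. Both 0 h libraries stood above all heated libraries. The 195 CPM of 12 h replicate 3 are 3 reads, which is the floor of that library. The log2 change was −2.55 ± 0.76 (SE, n = 2) after 12 h against 0 h, with an adjusted p of 0.032 by edgeR's quasi-likelihood test, and −2.01 ± 0.73 after 24 h against 0 h, with an adjusted p of 0.059. No other member of the 18 passed after 12 h, where 2.83% of all 459 sequences tested passed as lower and 0.436% as higher. Leaving out 0 h replicate 1 (−3.07), 0 h replicate 3 (−1.83), 12 h replicate 1 (−3.32), 12 h replicate 3 (−2.15) or 24 h replicate 3 (−2.32), which shares in the estimate of the spread, ended it. It passed in 3 of 13 alternative settings, with adjusted p from 0.0354 to 0.793.

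Its partner osa-MIR169a-p5 was the member with the most reads, 767 over the 6 libraries. Its levels were 1438 and 2822 CPM before heat, 1293 and 390 CPM after 12 h, and 917 and 773 CPM after 24 h. The 0 h libraries were again the highest, and the log2 changes of −1.26 ± 0.73 and −1.34 ± 0.72 did not pass (adjusted p = 0.432 and 0.264, edgeR).

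Among the guides, osa-miR169b and osa-miR169h were the most abundant. osa-miR169b had 261 and 737 CPM before heat, 1937 and 520 CPM after 12 h, and 1785 and 1031 CPM after 24 h. Both 24 h libraries lay above both 0 h libraries, with a log2 change of 1.45 ± 0.72 that did not pass (adjusted p = 0.209, edgeR). osa-miR169h had 1098 and 689 CPM before heat, 921 and 65.0 CPM after 12 h, and 977 and 897 CPM after 24 h, and the time points overlapped. Its value of 65.0 CPM after 12 h is a single read. Its log2 change after 24 h against 0 h was 0.08 ± 0.70 (adjusted p = 0.970, edgeR). Of the guide reads, osa-miR169b took 16.9 and 45.2% before heat, 51.5 and 74.4% after 12 h, and 52.1 and 36.2% after 24 h. osa-miR169h took 71.7 and 42.2%, then 24.6 and 11.5%, then 28.4 and 31.4%, with both 0 h libraries highest. The shares of 12 h replicate 3 rest on only 11.4 guide reads, and those of 0 h replicate 1 on 58.2. Whether the difference between the 2 guides is larger than the spread of the libraries was not tested.

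Each of the rarer guides had both 24 h libraries above both 0 h libraries, as had 26.6% of all sequences. osa-miR169r-5p_R+1 had 78.4 and 115 CPM before heat, 576 CPM in 12 h replicate 1 and no read in the shallow 12 h replicate 3, and 350 and 591 CPM after 24 h. Its log2 change after 24 h against 0 h was 2.22 ± 0.83 (adjusted p = 0.065, edgeR). osa-miR169n had 52.3 and 47.8 CPM before heat, 190 CPM and no read after 12 h, and 217 and 247 CPM after 24 h, a log2 change of 2.21 ± 0.92 (adjusted p = 0.105, edgeR). The 19-base osa-miR169f.1_R-2 was the rarest member, with 50.4 reads in all and a log2 change of 1.37 ± 0.99. osa-miR169n and osa-miR169f.1_R-2 reached the filter on reads only through the 12 h and 24 h libraries, so they could differ only by being higher later. In 0 h replicate 1 their levels, 52.3 and 26.1 CPM, were under the floor of 78.4 CPM, so no order is read from these guides. Summed, the 5 guides with the seed had 1642 and 1607 CPM before heat, 3430 and 785 CPM after 12 h, and 3306 and 2975 CPM after 24 h. The 0 h and 24 h libraries did not overlap, and the log2 change of 0.95 ± 0.73 did not pass (adjusted p = 0.502, edgeR).

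**Figure D2:**
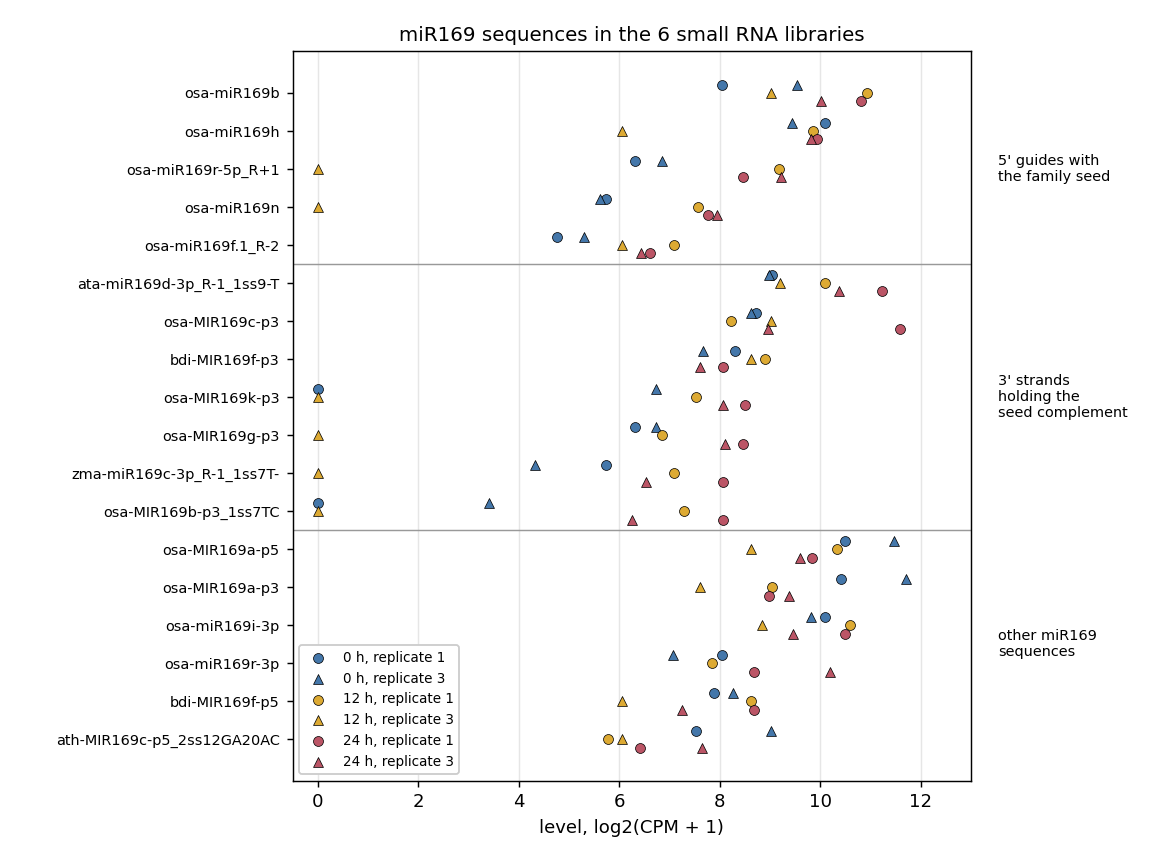
Level of each of the 18 miR169 sequences (rows, grouped by strand class) in log2(CPM + 1) on the horizontal axis; colour gives the time point and shape the replicate, and a point at 0 is a library with no read after rounding. For 11 of the 18 sequences both 24 h points lie to the right of both 0 h points, and 7 have their 12 h replicate 3 point at 0.

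On the 3′ side, 2 members passed the test as higher after 24 h against 0 h. osa-MIR169c-p3 had 418 and 392 CPM before heat, 298 and 520 CPM after 12 h, and 3076 and 494 CPM after 24 h. The 24 h libraries lie above the 0 h libraries, but 24 h replicate 1 alone is far from the rest. The log2 change was 2.13 ± 0.73 (SE, n = 2, adjusted p = 0.042, edgeR), and 0.26 without 24 h replicate 1, where the call was lost. It was also lost without 0 h replicate 1 (2.17) or 0 h replicate 3 (2.02), and it passed in 6 of 13 alternative settings (adjusted p from 0.0104 to 0.939).

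osa-MIR169b-p3_1ss7TC, a passenger of osa-miR169b that differs from the database entry by the base its name gives, had 0 and 1 read before heat, 23 and 0 reads after 12 h, and 22 and 14 reads after 24 h (replicates 1 and 3). Its reads pooled over both libraries and scaled to their totals were 19.1-fold higher after 24 h than before heat, with an exact 95% interval for counting error of 3.22 to 775. The fit gave a log2 change of 4.33 ± 1.25 (adjusted p = 0.012, edgeR), a size that depends on how a group with 1 read is treated. It reached the filter only through the 12 h and 24 h libraries, so it could be called only as higher. The call was met in 8 of 12 alternative settings, and was lost without 0 h replicate 1 (3.93), 0 h replicate 3 (6.94) or 24 h replicate 1 (3.24). zma-miR169c-3p_R-1_1ss7T-, which is the same sequence without its last base, had 2 and 2 reads before heat, 20 and 0 after 12 h, and 22 and 17 after 24 h. Its ratio after 24 h over 0 h was 5.17 (exact 95% interval 1.87 to 19.9), and it did not pass (log2 change 2.47 ± 1.01, adjusted p = 0.095, edgeR). The 2 entries are end variants of 1 strand and count as a single piece of evidence.

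Of the other 3′ strands, ata-miR169d-3p_R-1_1ss9-T had the most reads, 688 in all. It had 523 and 507 CPM before heat, 1090 and 585 CPM after 12 h, and 2388 and 1326 CPM after 24 h. Its time points were ordered without overlap, 0 h lowest and 24 h highest, but the 585 CPM after 12 h are only 9 reads. The log2 changes against 0 h, 0.76 ± 0.73 after 12 h and 1.85 ± 0.73 after 24 h, did not pass (adjusted p = 0.690 and 0.088, edgeR). osa-MIR169k-p3 and osa-MIR169g-p3, 19-base passengers that differ by C19T (osa-MIR169g-p3 base first), had log2 changes of 2.22 ± 0.87 and 1.70 ± 0.85 (adjusted p = 0.084 and 0.209, edgeR). The sequence of osa-MIR169g-p3 is also that of the precursors h, l and m, and it had the lowest analysis-of-variance p of the members in the authors' deposited table, 0.00927. bdi-MIR169f-p3 had 314 and 201 CPM before heat, 474 and 390 CPM after 12 h, and 265 and 193 CPM after 24 h. It was highest in both 12 h libraries, but its log2 change after 12 h against 0 h, 0.81 ± 0.80, did not pass (adjusted p = 0.697, edgeR).

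The 7 strands with the seed complement summed to 1529 and 1316 CPM before heat, 2241 and 1642 CPM after 12 h, and 6753 and 2835 CPM after 24 h. Each later time point lay above the one before without overlap. The step from 0 h to 12 h is not settled, since 1642 CPM are 23 reads of the shallow library and 1529 CPM are 54 reads. The log2 change after 12 h against 0 h was 0.46 ± 0.70 and did not pass (adjusted p = 0.823, edgeR). The log2 change after 24 h against 0 h was 1.75 ± 0.71, which did not pass after adjustment (adjusted p = 0.131, edgeR). Against the guides they made up 48.2 and 45.0% of the reads of both classes before heat, 39.5 and 67.6% after 12 h, and 67.1 and 48.8% after 24 h, so the balance of the strands showed no order by time.

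The sequences outside both classes did not share a course. osa-miR169r-3p, the annotated 3′ strand of the precursor of osa-miR169r-5p, had 261 and 134 CPM before heat, 230 CPM and no read after 12 h, and 410 and 1171 CPM after 24 h. Both 24 h libraries were highest, with a log2 change of 2.07 ± 0.79 against 0 h (adjusted p = 0.076, edgeR). osa-miR169i-3p had 1098 and 899 CPM before heat, 1551 and 455 CPM after 12 h, and 1447 and 703 CPM after 24 h, and all time points overlapped. ath-MIR169c-p5_2ss12GA20AC, whose precursor lacks the guide seed, had 183 and 517 CPM before heat, 54.2 and 65.0 CPM after 12 h, and 84.4 and 199 CPM after 24 h. The 65.0 CPM are a single read, under the floor of 195 CPM of that library, so no order is read from it. The log2 change after 12 h was −2.67 ± 0.96 and did not pass (adjusted p = 0.108, edgeR). bdi-MIR169f-p5, which overlaps the annotated guide of its precursor by 15 bases and holds the seed further in, had 235 and 306 CPM before heat, 393 and 65.0 CPM after 12 h, and 410 and 150 CPM after 24 h, with overlap throughout.

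Counted over the whole family, 13 of 18 sequences had a positive log2 change after 24 h against 0 h, with a median of 1.57, beside 50.3% positive and a median of 0.00 over all 459 sequences. The 2 called sequences, both higher, compare with 2.61% of all sequences passing as higher and 6.97% as lower. The count was 0 without 0 h replicate 1, without 0 h replicate 3 and without 24 h replicate 1, 6 without 12 h replicate 1, 1 with DESeq2 and 7 when only the 0 h and 24 h libraries were fitted. The 1 with DESeq2 was neither of the 2 called sequences. DESeq2 gave osa-MIR169c-p3 an adjusted p of 0.0696 and osa-MIR169b-p3_1ss7TC none. At an unadjusted p under 0.05 in the edgeR fit there were 10 higher and 1 lower, where 22.4% of all sequences reached that level in either direction. Both 24 h libraries lay above both 0 h libraries for 11 members and below for 2, against 26.6% and 27.7% of all sequences. 4 of the 18, the called osa-MIR169b-p3_1ss7TC among them, reached the filter of 10 reads in no 0 h library, so these could differ only by being higher later. All 4 are counted in the 13 and in the 11 above. All but osa-miR169f.1_R-2 are also counted in the 10. Many members share precursors or nearly all of their bases, so the 18 are not independent.

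At 12 h against 0 h, 11 of 18 had a positive change, with a median of 0.42 beside −0.03 over all sequences. The 4 members with no 0 h library at the filter are all among the 11. Both 12 h libraries lay above both 0 h libraries for 3 members and below for 3, against 17.2% and 24.4% of all sequences. Among these members, osa-miR169f.1_R-2 (above) and ath-MIR169c-p5_2ss12GA20AC (below) had a single read in 12 h replicate 3, under the floor of that library. At 24 h against 12 h no member passed by edgeR or by DESeq2, 3 reached an unadjusted p under 0.05 (7.84% of all sequences did), and 0.218% of all sequences passed as higher and 0% as lower.

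**Figure D3:**
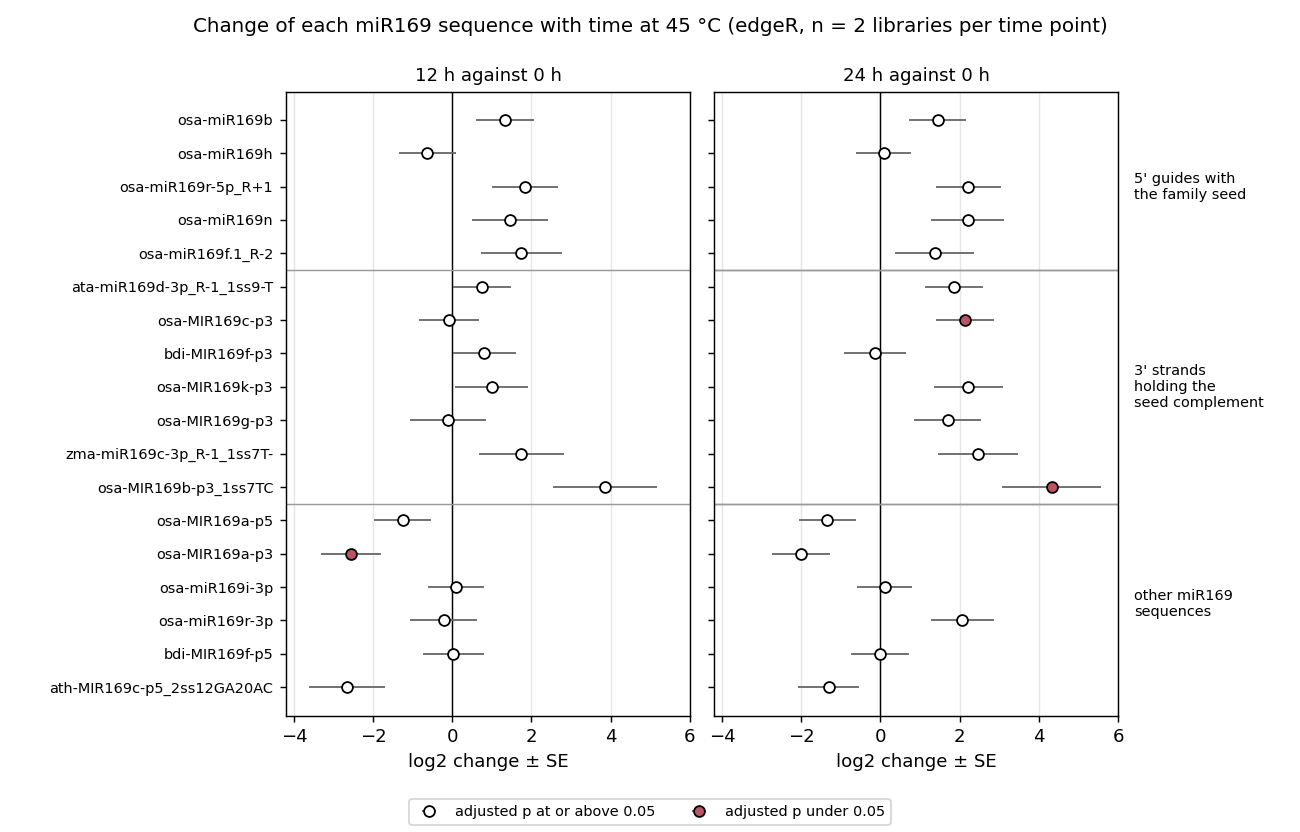
Log2 change with its standard error (horizontal axis) of each miR169 sequence after 12 h (left) and 24 h (right) against 0 h, from the edgeR fit to 2 libraries per time point; filled points passed an adjusted p of 0.05. osa-MIR169a-p3 is the filled point at −2.55 on the left, and osa-MIR169c-p3 (2.13) and osa-MIR169b-p3_1ss7TC (4.33) are those on the right.

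The degradome tells which transcripts carried 5′ ends at the position where a miR169-led cut would fall, and 1 nuclear factor Y gene held most of the reads found at genes of that class. LOC_Os03g48970, annotated as subunit A1 or A9 depending on the transcript, had 217 reads before heat, 283 after 12 h and 758 after 24 h. Per 10000000 raw reads that is 173, 256 and 585. The 24 h library was 3.38-fold above the 0 h library (exact 95% interval 2.91 to 3.95) and 2.28-fold above the 12 h library (1.99 to 2.62), and 12 h was 1.48-fold above 0 h (1.24 to 1.78). These intervals cover counting error in 1 library per time point, and the differences have no replicate check.

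This site was in category 0 in all 3 libraries, the class in which such tables place a site with the highest signal of its transcript. By reads it ranked 6th before heat, 3rd after 12 h and 2nd after 24 h among the 548 sites listed for any microRNA. All 5 guides were listed at it, with alignment scores of 3 to 4, where a lower score stands for a better match. The listed cleavage position is base 1776 of transcript LOC_Os03g48970.2, opposite base 10 of the guide. Its 4 transcripts share the reads, so the isoform that was cut is not known.

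Sites with at least 10 reads in a library give the background for these ratios, with a count of 0 taken as 3 reads. At 24 h over 0 h, 23.4% of 47 such sites were at least 2-fold higher and 36.2% at least 2-fold lower per raw read, with a median ratio of 0.775. At 12 h over 0 h, 8.89% of 45 were at least 2-fold higher and 55.6% at least 2-fold lower, with a median of 0.409. LOC_Os03g48970 was thus on the higher side of both distributions, past 2-fold after 24 h only.

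The next nuclear factor Y gene, LOC_Os12g42400 (subunit A10), had fewer reads in both heated libraries. It had 12, 1 and 4 reads at 0, 12 and 24 h, or 9.56, 0.906 and 3.09 per 10000000. The ratio to 0 h was 0.0948 after 12 h (exact 95% interval 0.00222 to 0.641) and 0.323 after 24 h (0.0759 to 1.07). Its site was in category 0 before heat and after 24 h and in category 4, a single read, after 12 h. It had the best alignment of the nuclear factor Y sites, a score of 1.5 with osa-miR169n, and 3.5 with osa-miR169b. osa-MIR1430-p5, the sequence of another family with the same seed, was listed there too, so its reads cannot be assigned to miR169 alone. osa-MIR1430-p5 had 52 and 104 reads before heat, 473 and 11.5 after 12 h, and 285 and 195 after 24 h.

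LOC_Os03g44540, also subunit A10, had 7, 1 and 3 reads and was in category 0 before heat only, with ratios of 0.163 (0.00361 to 1.27) and 0.415 (0.0693 to 1.82). LOC_Os03g29760 (subunit A3) had 3, 0 and 2 reads, LOC_Os03g07880 (A3, A6 or A8 by transcript) 1, 2 and 2, and LOC_Os07g41720 (A3) 1, 1 and 2. LOC_Os02g53620 (subunit A5) had 1, 1 and 0 reads. Both intervals of LOC_Os03g44540 include 1. At these depths no difference from 0 h was detectable for any of these genes, and a count of 0 allows up to 3.69 reads by the exact Poisson interval. The subunit numbers are those of the deposited annotation.

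Summed over the 7 genes, 242 reads before heat, 289 after 12 h and 771 after 24 h gave ratios of 1.36 (1.14 to 1.62) and 3.09 (2.67 to 3.58). Without LOC_Os03g48970 the other 6 had 25, 6 and 13 reads, and the ratios turned to 0.273 (0.0916 to 0.682) and 0.504 (0.237 to 1.02). Most reads of the sum are thus of 1 gene. Both intervals of the other 6 genes hold the median ratios of the sites with at least 10 reads, 0.409 and 0.775. Among these 6 only LOC_Os12g42400 reached that depth. The lower sums of the 6 come from the A10 genes LOC_Os12g42400 and LOC_Os03g44540. Degradome reads depend on how much of the transcript is made as well as on how much is cut, and transcript levels are not analysed here.

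**Figure D4:**
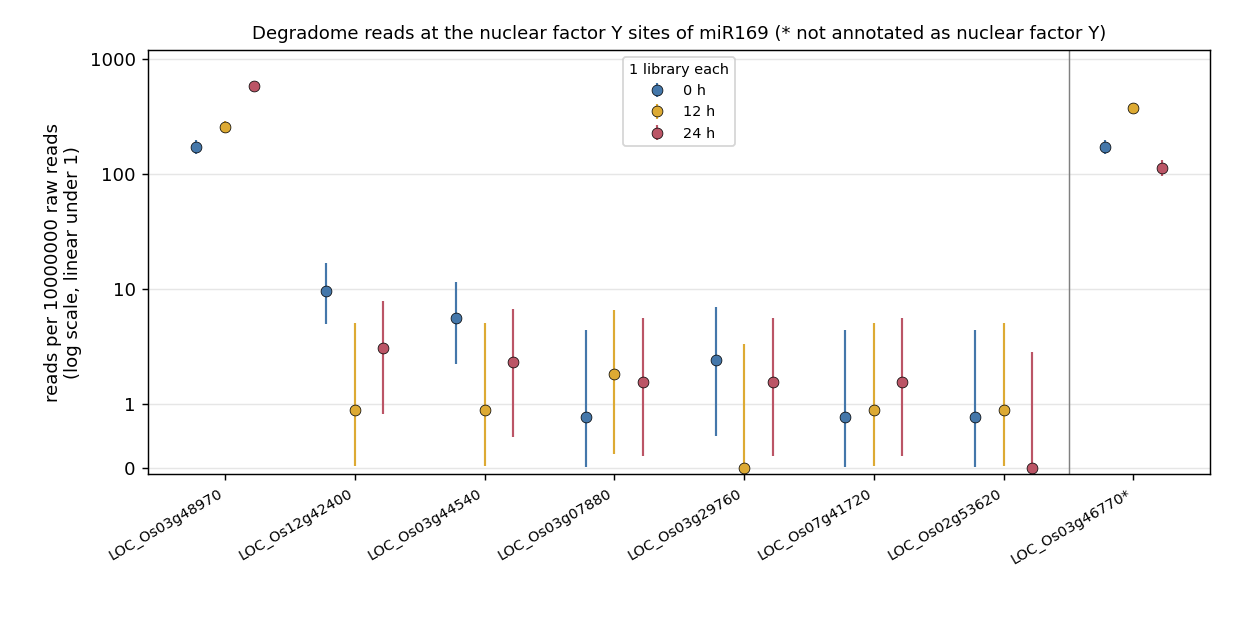
Degradome reads per 10000000 raw reads (vertical axis, log scale above 1 and linear below) at the 7 nuclear factor Y sites of miR169 and at the site in LOC_Os03g46770 (right of the line), with exact Poisson 95% intervals and 1 library per time point. LOC_Os03g48970 goes from 173 to 256 and 585, while each other nuclear factor Y site stays under 10.

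Side by side, the guides and the sites do not give the same order for each gene. The summed guides stood at 1625 ± 24.5, 2107 ± 1870 and 3141 ± 234 CPM (mean ± SD, n = 2) at 0, 12 and 24 h, but the 12 h libraries, at 3430 and 785 CPM, lay above and below all others. Reads at LOC_Os03g48970 were lowest before heat and highest after 24 h. LOC_Os12g42400 and LOC_Os03g44540, listed for 5 and 4 of the same guides, had most reads before heat, but only 12 and 7. Of their ratios to 0 h, only that of LOC_Os12g42400 after 12 h has an interval that leaves out 1. The median ratio of sites with at least 10 reads was also under 1, at 0.409 and 0.775. With 3 time points no correlation was computed.

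Outside nuclear factor Y, 17 loci were listed for the family, and 15 of them had under 10 reads in every library. Among these 15, the elongation factor Tu genes LOC_Os03g08010, LOC_Os03g08020 and LOC_Os03g08050 carry the same 5, 7 and 4 reads, which cannot be assigned to any of them. LOC_Os03g46770, with no annotation in the deposited table, had 215, 415 and 147 reads, or 171.3, 376 and 113 per 10000000. It was 2.20-fold above 0 h after 12 h (exact 95% interval 1.86 to 2.60) and 0.662-fold after 24 h (0.533 to 0.821), and was the site with the most reads of all 548 after 12 h. It was in category 2 in every library and listed only for the 19-base osa-miR169f.1_R-2, the rarest member, at the highest score in the table, 4. LOC_Os05g28290, annotated as RAN binding protein 1, had 10, 8 and 16 reads in category 2 at sites of the passengers osa-MIR169g-p3 and osa-MIR169k-p3, and its ratios of 0.910 (0.312 to 2.56) and 1.55 (0.661 to 3.82) include 1. No nuclear factor Y row named a passenger: all 88 rows of the family at these genes were for the 5 guides. For the other loci, 3 were listed for guides and 14 only for other members. The authors' deposited table gives a chi-square p for each site that is small even where the reads are 1, 1 and 0 (2.6e-28 at LOC_Os02g53620), so it was not used.

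Other families with known roles give a setting for miR169. Of 12 conserved families whose known targets encode transcription factors (miR156, miR159, miR160, miR164, miR166, miR167, miR171, miR172, miR319, miR396, miR444 and miR529), 3 rose after 24 h against 0 h by the same family test, miR396 (3.23 ± 0.34), miR172 (2.54 ± 0.81) and miR160 (1.83 ± 0.60), and 0 fell, where 4.03% of all 124 families passed as higher and 10.5% as lower. For miR396, miR172 and miR160 the adjusted p was 5.8e-07, 0.041 and 0.046 (edgeR). Those of miR172 and miR160 lie close to the threshold of 0.05. The median log2 change of these 12 was 0.95, beside 0.05 over all 124 families and 0.30 for miR169. At 12 h against 0 h, 1 rose (miR396) and 0 fell, with a median of 0.03, where 0.806% of all families passed as higher and 2.42% as lower. Of 4 nutrient-response families (miR395, miR399, miR827 and miR2111) only miR827 passed the filter, with a log2 change of 1.76 ± 0.98 after 24 h (adjusted p = 0.310, edgeR).

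Likeness of course was measured by Pearson's r of log2(CPM + 1) with the summed 5′ arm of miR169 over the 6 libraries, among 123 families. The highest were miR7700 (0.966), miR1103 (0.942), miR6255 (0.887), miR2863 (0.877) and miR3979 (0.870). The first 3 and miR3979 had no read in 12 h replicate 3, the shallow library, where the 5′ arm was also lowest at 1367 CPM. The points share library depth, and these values describe the 6 libraries only.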

How the data were processed

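Leaves of HT54 rice seedlings gave 6 small RNA libraries and 3 degradome libraries. The small RNA values are estimated counts, since per the deposited tables a read that matches several entries was divided among them. 58.3% of the values of the 18 members were whole (tolerance 1e-06). The authors also deposited a normalized signal, the raw value times a constant per library, which was not tested. Degradome values are read counts at each listed cleavage site, per the file headers, with the same reads divided among transcripts, a TPB signal (divided reads scaled by the raw reads of the library) and 2 scores, the site category (0 to 4) and the alignment score. The deposited p-values come from an analysis of variance and a chi-square test, per the file headers. The mapper, the target finder and the microRNA database release are not named in the sources used here.

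Each distinct sequence entered 1 time, and counts were rounded because the planned test takes whole counts. edgeR 4.0.16 (R 4.3.3) was fitted to all 6 libraries with TMM scaling, time point as the factor, a filter of at least 10 reads in at least 2 libraries, Benjamini-Hochberg adjustment over all 459 sequences, 124 families or 188 family arms, and a threshold of 0.05, 2-sided. All 18 members passed the filter. The sequence fit had infinite prior degrees of freedom, so its SE and p rest on a spread shared by all sequences (biological coefficient of variation 0.468). Whether same-numbered libraries are paired was checked by the correlation of replicate 1 minus 3 between time points. It was −0.13, 0.14 and −0.20, so the numbers were not used as pairs. Degradome ratios are per raw read, with exact conditional 95% intervals and no test. Alternatives were other scalings, DESeq2 1.42.0, no filter, fits of 2 time points, a replicate block and leaving out each library.

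Sequences described singly had at least 100 reads in all or passed the test. osa-miR169f.1_R-2 and zma-miR169c-3p_R-1_1ss7T- fall outside that rule and were chosen after their values were seen, the first as a guide and the second as an end variant of a called sequence. Degradome loci described were those of nuclear factor Y or with at least 10 reads in a library. The elongation factor Tu loci fall outside that rule and are named only for the reads they share. The members, lists and rules were chosen with earlier results of these data known. The fit was tested on simulated data. A few lines of the deposited precursor tables were empty and gave no position. No genome was used, so target site sequences are not shown. Temperature and times come from the labels.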

Additional observations from a re-analysis of the deposited data

How the results depend on the processing

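The sums of the family and of its arms passed the threshold in no setting. The 5′ arm is the least settled in direction. After 12 h against 0 h it ran from −1.71 to 0.29 (log2) with 1 library left out and was 0.42 when only the 5 guides with the seed were summed. After 24 h against 0 h it ran from −0.35 to 0.35 with 1 library left out, and was 0.031 with RLE size factors, 0.080 without the 3 most abundant sequences in the totals, 0.031 with DESeq2, 0.067 with only the 2 time points fitted and 0.95 for the guides with the seed. After 24 h against 12 h it ran from −0.32 to 1.77 and was −0.19 with plain totals. The 3′ arm after 12 h turned to 0.46 when only strands with the seed complement were summed. The family after 24 h turned to −0.18 with plain totals. Both sums by seed were added after the data were seen. The cause of these turns was not tested.

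The number of members past the threshold after 12 h, 1 as reported, was 0 without the 3 most abundant sequences in the totals, with plain totals, with DESeq2, with a replicate block and with 2 time points fitted, and 0 to 1 with a library left out. After 24 h, 2 as reported, it was 1 without the 3 most abundant sequences, 1 with DESeq2, 7 with 2 time points fitted and 0 to 6 with a library left out. The 1 with DESeq2 was neither of the 2 reported. The replicate block gave 0 after 24 h, with log2 changes of 1.85 for osa-MIR169c-p3 and 3.92 for osa-MIR169b-p3_1ss7TC. Both calls were lost in this setting (adjusted p = 0.195 and 0.0602, edgeR). The correlations of replicate 1 minus 3 (−0.13, 0.14 and −0.20) were weak, and 2 libraries per time point cannot settle whether the numbers pair the libraries. After 24 h osa-MIR169a-p3 passed in 3 of 13 settings. The ratio of nuclear factor Y reads turned to 0.273 after 12 h and 0.504 after 24 h without the locus with the most reads. The shallow 12 h replicate 3, where 3 reads equal 195 CPM, limits every value of that time point.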
